A study of Mus musculus with 144 samples.

Results

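Imprinted growth genes were followed in brown adipose tissue (BAT) and liver of mice kept on 5 feeding regimens. The set names 10 genes, Nnat, Mest, Peg3, Igf2, H19, Dlk1, Meg3, Cdkn1c, Plagl1 and Grb10, which were chosen by symbol with earlier results of these data known, above all the fall of Nnat in BAT of day-restricted mice. By symbol, 8 of the 10 matched a row among the 21869 genes of the count tables. H19 and Meg3 are not analysed here. Because the members were chosen with the BAT comparison in view, their values in that comparison are given as a description with no test, and tests are kept for liver, for daily rhythm within a group and for the other genes.

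The mice were wild-type C57BL/6J males aged 6 months that had spent 10 weeks on a regimen, housed singly with a running wheel. AL mice had food at all hours. TR-day and TR-night mice ate without limit, but only in the first 6 h of the light or the dark phase. CR-day and CR-night mice received 70% of their baseline intake from the start of the same windows. All were sampled every 4 h at 12 circadian times over 2 days in constant darkness, CT00 to CT44. In liver each regimen had 24 libraries, 1 of letter A and 1 of letter B at each time, and BAT gave 12 AL libraries, all of letter A, and 12 CR-day libraries, all of letter B. In BAT the letter and the regimen therefore cannot be told apart, and each time point rests on 1 library. The labels call the liver letters biological duplicates without saying which animals or batches they were, so p-values measure the spread between these samples.

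Library totals ran from 5830040 to 26649153 counts in liver and from 6978002 to 11607273 in BAT. The CR-day BAT library of CT00 has RPKM (reads scaled to exon length and library size) but no counts, so count-based BAT values have 11 CR-day libraries. BAT libraries carried the 12 listed brown adipocyte markers at a summed 7882 to 12800 CPM (counts scaled to library size) and the 8 hepatocyte markers at 0.827 to 8.06, and the hepatocyte sum in liver was never below 41600. Residuals lay far from the rest in 4 liver libraries, AL CT00A, AL CT12B, CR-day CT08B and CR-day CT44B, and in 2 BAT libraries, AL CT20A and AL CT28A. The summed level of 9 skeletal muscle markers ran from 3.22 to 2201 CPM (median 1573) in AL BAT and from 78.1 to 782.1 (median 466.4) in CR-day BAT, with no marker of the list at 0 in every library of a group. In 7 AL libraries it lay above the highest CR-day library.

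Imprinted genes are expressed mainly or only from the copy inherited from one parent, and many of them set how much a fetus and its placenta grow. Igf2 is a growth factor whose signal runs through the IGF1 and insulin receptors and which the imprinted receptor Igf2r removes. Cdkn1c (p57) halts the cell cycle, Grb10 is an adaptor that damps insulin and IGF receptor signalling, and Plagl1 and Peg3 encode zinc-finger proteins. Dlk1 (preadipocyte factor 1) holds back adipocyte differentiation, Mest is known as a marker of expanding fat cells, and Nnat (neuronatin) is a small proteolipid of the endoplasmic reticulum found in neurons and adipose tissue. Many of these genes are turned down after birth in most organs. The counts do not separate the parental copies.

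Promoters of the members that differed most between the BAT groups, Nnat and Peg3, are shown because methylation of CpG dinucleotides there marks the silent copy at many imprinted loci. The stretches are RefSeq's on GRCm38.p6, from 250 bases before to 50 after the annotated start, 5′ to 3′ on the strand of the gene, with every CpG in capitals. Nnat lies at chr2:157559828-157560127 on the plus strand and Peg3 at chr7:6730370-6730669 on the minus strand.
Nnat: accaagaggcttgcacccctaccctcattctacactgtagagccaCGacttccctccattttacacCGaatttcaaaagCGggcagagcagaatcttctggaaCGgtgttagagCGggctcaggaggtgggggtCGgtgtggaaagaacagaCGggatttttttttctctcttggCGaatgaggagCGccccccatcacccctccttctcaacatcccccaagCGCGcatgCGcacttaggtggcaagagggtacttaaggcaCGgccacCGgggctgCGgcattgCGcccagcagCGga
Peg3: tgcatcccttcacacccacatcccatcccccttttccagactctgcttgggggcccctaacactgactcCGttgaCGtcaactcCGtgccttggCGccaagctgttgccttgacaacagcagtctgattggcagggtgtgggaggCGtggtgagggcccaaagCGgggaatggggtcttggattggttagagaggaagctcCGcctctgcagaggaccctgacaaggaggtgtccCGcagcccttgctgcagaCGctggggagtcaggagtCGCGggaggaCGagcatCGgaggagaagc
The Nnat stretch held 17 CpG, a number that 31.4% of the 32851 promoters in the table reach, and the Peg3 stretch held 13, reached by 37.9%. The median promoter held 7.0. In all, 8 of the 10 genes had 15 promoter entries, and the letters CACGTG, the E-box that CLOCK and BMAL1 bind, which read the same on both strands, stood in 1 of the 15, that of Plagl1, against 7.15% of all promoters. Methylation was not measured.

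Nnat had the lowest log2 fold of all 10966 genes tested between CR-day and AL BAT, which is how the set was chosen. In AL BAT it stood at 9.42, 10.9, 11.1, 6.56, 11.5, 5.63, 26.9, 10.3, 12.4, 45.5, 37.7 and 7.39 CPM from CT00 to CT44. In CR-day BAT it stood at 1.29, 2.43, 0.633, 1.11, 1.12, 1.55, 0.502, 8.23, 0.521, 2.82 and 1.38 CPM from CT04 to CT44. Of the 11 CR-day libraries, 10 lay below the lowest AL library, and the CT32 library reached into the AL range. The means were 16.3 ± 13.1 CPM (SD, n = 12) and 1.96 ± 2.21 CPM (SD, n = 11), and the fitted difference was -3.09 ± 0.44 in log2 (SE), an 8.53-fold lower level. The next lowest fold was -2.49 ± 0.45, of Fndc5, a gene abundant in skeletal muscle. In the library that has RPKM alone, CR-day CT00, Nnat was 0.416 RPKM, below all 12 AL libraries, whose lowest was 2.31. Fewer cells of a type and less RNA per cell cannot be told apart in bulk tissue.

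Nnat (ENSMUSG00000067786.16, chromosome 2, 157560078 to 157562522, mm10) sits inside the span of Blcap, another imprinted gene, on the opposite strand, with no exon base in common. Blcap was 27.9 ± 4.24 CPM in AL BAT and 27.9 ± 6.34 in CR-day BAT (SD, n = 12 and 11), and its log2 fold was 0.0061 ± 0.094 (quasi-likelihood test of edgeR, p adjusted by Benjamini-Hochberg over all genes, 0.984). The log2 fold of Nnat was -2.11 ± 0.43 without the 7 AL libraries that were richest in muscle markers. In the AL libraries poorest in them, CT20 (3.22 CPM of muscle markers) and CT28 (16.3 CPM), Nnat stood at 5.63 and 10.3 CPM, the first above 10 of the 11 CR-day libraries and the second above all 11. The AL libraries highest in Nnat, CT36, CT40 and CT24, were all rich in muscle markers, at 1818, 1735 and 2201 CPM. Across the AL libraries log2 Nnat and the log2 muscle sum had a Pearson r of 0.524 (n = 12), and across the CR-day libraries 0.362 (n = 11), given as a description. CT20 and CT28 are also the BAT libraries that lay far from the rest. The part of muscle RNA in the difference was not tested beyond these values. Of the 9 muscle markers 1, Mb, passed the test in BAT and was lower in CR-day, and the list's median log2 fold was -1.62 against -0.0019 over all genes.

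Peg3 went the other way and followed the time of day. In AL BAT it lay between 13.0 and 36.4 CPM, with a mean of 25.7 ± 8.14 (SD, n = 12). In CR-day BAT it was 43.6, 21.4, 15.6 and 40.9 CPM from CT04 to CT16, 63.1, 172.9 and 66.5 from CT20 to CT28, and 16.7, 15.9, 25.3 and 54.6 from CT32 to CT44. CR-day BAT was thus highest around the hour at which the meal window opens, and 6 of 11 libraries lay above every AL library. The CT00 library without counts had the highest Peg3 of all BAT libraries, 13.4 RPKM, where the other CR-day libraries reached 9.09 and the AL libraries 2.22. The mean fold over the day was 0.70 ± 0.17 in log2 (SE).

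The daily wave of Peg3 in CR-day BAT had an amplitude, from mean to peak, of 1.45 ± 0.19 log2 units and a peak at CT 23.3 ± 0.450 h, and passed the rhythm test (edgeR, adjusted p = 3.1e-05). It did so with each of the 23 BAT libraries left out (adjusted p 1.2e-05 to 6.7e-04) and on the second day alone (0.00123), but not on the first day alone (0.0842). In AL BAT the amplitude was 0.33 ± 0.20 and the rhythm test was not passed (adjusted p = 0.371). The difference in rhythm between both BAT groups was not tested, since it belongs to the comparison that chose the members. Peg3 was the 1 of 6 tested members rhythmic in CR-day BAT, where 15.1% of genes were. In AL BAT it was 0 of 6, where 10.5% of all genes were, with 1 at an unadjusted p under 0.05 and 1 by DESeq2.

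Cdkn1c, the most abundant member of BAT per kilobase, is that 1 gene. It was 35.3 ± 13.8 CPM in AL and 26.7 ± 8.99 in CR-day BAT (SD, n = 12 and 11), or 14.2 ± 5.80 and 11.2 ± 3.41 RPKM (SD, n = 12 each), with a log2 fold of -0.44 ± 0.15 (SE). The AL wave had its top at CT 9.73 ± 1.31 and the CR-day wave at CT 9.47 ± 1.14, with amplitudes of 0.51 ± 0.18 and 0.54 ± 0.17. Neither wave passed edgeR's test (adjusted p = 0.0570 and 0.0656), and both did with DESeq2 (0.0225 and 0.0337). The ranges overlapped, at 20.1 to 60.9 and 15.2 to 37.9 CPM.

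Igf2 and Grb10 differed little between the BAT groups. Igf2 was 8.95 ± 2.30 CPM in AL and 8.42 ± 2.26 in CR-day, with a log2 fold of -0.10 ± 0.14 and an interval from -0.37 to 0.17. Grb10 was 9.94 ± 2.07 and 9.44 ± 2.09 CPM, with a fold of -0.05 ± 0.12 and an interval from -0.29 to 0.19. Plagl1 was 2.22 ± 1.09 and 1.71 ± 0.283 CPM, with a fold of -0.33 ± 0.23. Without the muscle-rich libraries the Plagl1 value turned to 0.43 ± 0.27. Its AL libraries ran from 0.806 to 3.82 CPM and the CR-day ones from 0.995 to 2.20, and the highest AL values, 3.82, 3.74 and 3.53 CPM, were in libraries left out there.

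Dlk1 and Mest did not pass the filter on low counts in BAT and are given by their levels. Dlk1 was 1.21 ± 0.652 CPM in AL and 0.708 ± 0.528 in CR-day BAT, with 6 of 11 CR-day libraries below the lowest AL library. Mest was 1.09 ± 0.953 and 1.12 ± 0.626 CPM, with ranges of 0.196 to 3.71 and 0.402 to 2.58. Igf2 shares 3596 exon bases with Gm49394 on its own strand, so its counts are uncertain. Between CR-day and AL BAT 6.56% of all tested genes passed the test. That share was 1.41% without the muscle-rich AL libraries, 3.93% without CR-day CT08B, 4.31% without AL CT04A, 1.02% on the first day alone and 0.0459% on the second. In all libraries, ranges failed to overlap for 0.0365% of the genes. Among the 6 members tested, 0 had ranges that did not overlap. The median log2 fold of these 6 was -0.22.

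**Figure D1:**
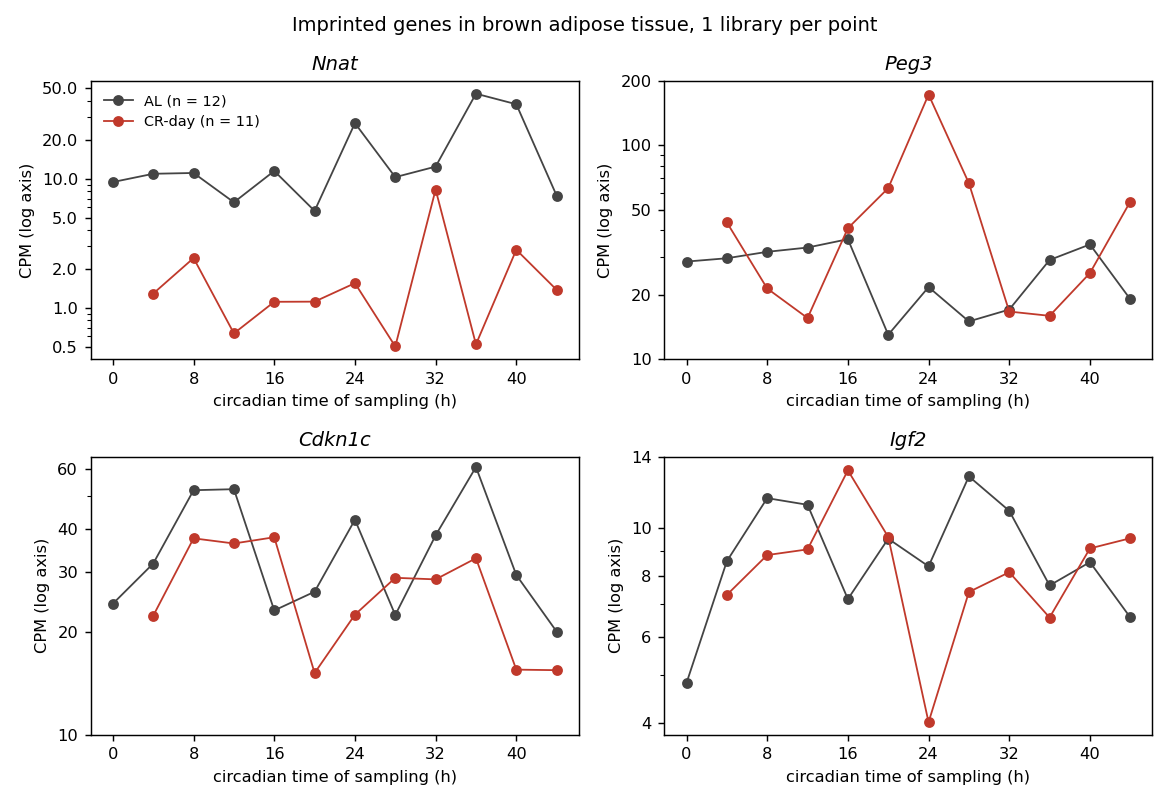
CPM of Nnat, Peg3, Cdkn1c and Igf2 on log axes against the circadian time of sampling in BAT, with 1 point per library (AL grey, n = 12; CR-day red, n = 11). The Nnat points of CR-day lie below those of AL at each shared time, Peg3 of CR-day reaches 172.9 CPM at CT24, and Igf2 of both groups occupies one range.

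Other imprinted genes in BAT are given for comparison with Nnat and Peg3. Of 44 listed, 22 were tested in BAT, and 1 was higher and 1 lower in CR-day (edgeR, adjusted over all genes), with a median log2 fold of 0.03. Over all genes 2.74% were higher and 3.81% lower, and the count is to be read against those shares. Ndn, the imprinted MAGE-family gene necdin, fell by 0.52 ± 0.12 in log2 (adjusted p = 0.0114). Igf2r, the receptor that clears IGF2, rose by 0.32 ± 0.094 (adjusted p = 0.0429). The count went from 1 to 4 as single libraries were left out and was 0 on either day alone.

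Among 12 tested genes of the IGF2 and insulin axis in BAT, Igf2r rose and Igfbp5, a secreted IGF-binding protein, fell by 0.62 ± 0.10 (adjusted p = 0.00128). The receptors Igf1r (0.15 ± 0.11, adjusted p = 0.452) and Insr (0.05 ± 0.10, adjusted p = 0.843) did not pass. Counts of markers are to be read against the 2.74% of all genes that were higher and the 3.81% that were lower. Of 12 brown adipocyte markers 4 were lower in CR-day BAT. They were Cox7a1, Cox8b, the uncoupling protein Ucp1 at -0.67 ± 0.14 (adjusted p = 0.00422) and the deiodinase Dio2 at -1.06 ± 0.29 (0.0293). The brown list's median log2 fold was -0.20. Fabp4 (0.07 ± 0.087) and Ppargc1a (0.04 ± 0.10) had positive folds, and Lipe, Kcnk3, Elovl3, Adipoq, Plin1 and Cidea negative ones, none of which passed. Of 11 preadipocyte and fibroblast markers 3 were higher, Dcn at 0.45 ± 0.10 (0.0104), Lum and Pdgfra, and 0 were lower by the test. That list's median log2 fold was 0.0015, and Pdgfrb (-0.37 ± 0.16, adjusted p = 0.182), Ly6a, Dpt, Pi16 and Cd34 had negative folds that did not pass. Of 4 macrophage markers Cd68 and Lyz2 were higher. The part of any of these markers in the members' values was not tested.

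Among the 5 genes whose residual pattern over 23 BAT libraries was most like that of Nnat, after group means were removed, were Ccnd2 (cyclin D2, Pearson r = 0.725), Chrdl1 (a BMP antagonist, 0.711), C2 (a complement component, 0.710) and Retn (the adipokine resistin, 0.696). For Mest they were Hspa12a (0.672), Cadm2 (0.668), Trabd2b (0.668), Cep41 (0.666) and Tmem182 (0.658). These are among the highest of 10634 genes compared for Nnat, in libraries that share depth and muscle content, at low counts for Mest, and are given as a description only.

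Between the tissues, the 4 members that passed the low-count filter in both were all higher in BAT. Nnat, for which no test is given, was 16.3 CPM in AL BAT and 0.109 ± 0.193 CPM in AL liver (SD, n = 24), and its mean was 0.109 to 0.163 CPM in the 5 liver groups. Grb10 was higher in AL BAT than in AL liver by 1.86 ± 0.15 in log2 (edgeR, adjusted p = 9.7e-23), Peg3 by 1.10 ± 0.16 (5.0e-10) and Plagl1 by 0.54 ± 0.21 (0.0168). In the AL BAT libraries not rich in muscle markers, CT00, CT12, CT20, CT28 and CT32, Plagl1 was 1.15, 0.806, 1.07, 1.42 and 2.88 CPM. Its AL liver mean was 1.68 CPM, and the part of muscle RNA here was not tested. Cdkn1c was 35.3 CPM in AL BAT and 1.08 in AL liver, given with no test. Only 14 of 24 AL liver libraries reached the filter's 0.934 CPM, so in liver it passed through the restricted groups. Mest passed the low-count filter in liver and not in BAT. It is given by its level, 1.09 CPM in AL BAT against 1.89 in AL liver, with no test. Of all genes tested in both tissues, 36.5% were higher in BAT, and the median log2 fold was -0.11. Dlk1 (1.21 against 0.051 CPM) and Igf2 (8.95 against 0.434 CPM) passed the low-count filter through BAT alone, so they are given by their levels, with no test.

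**Figure D2:**
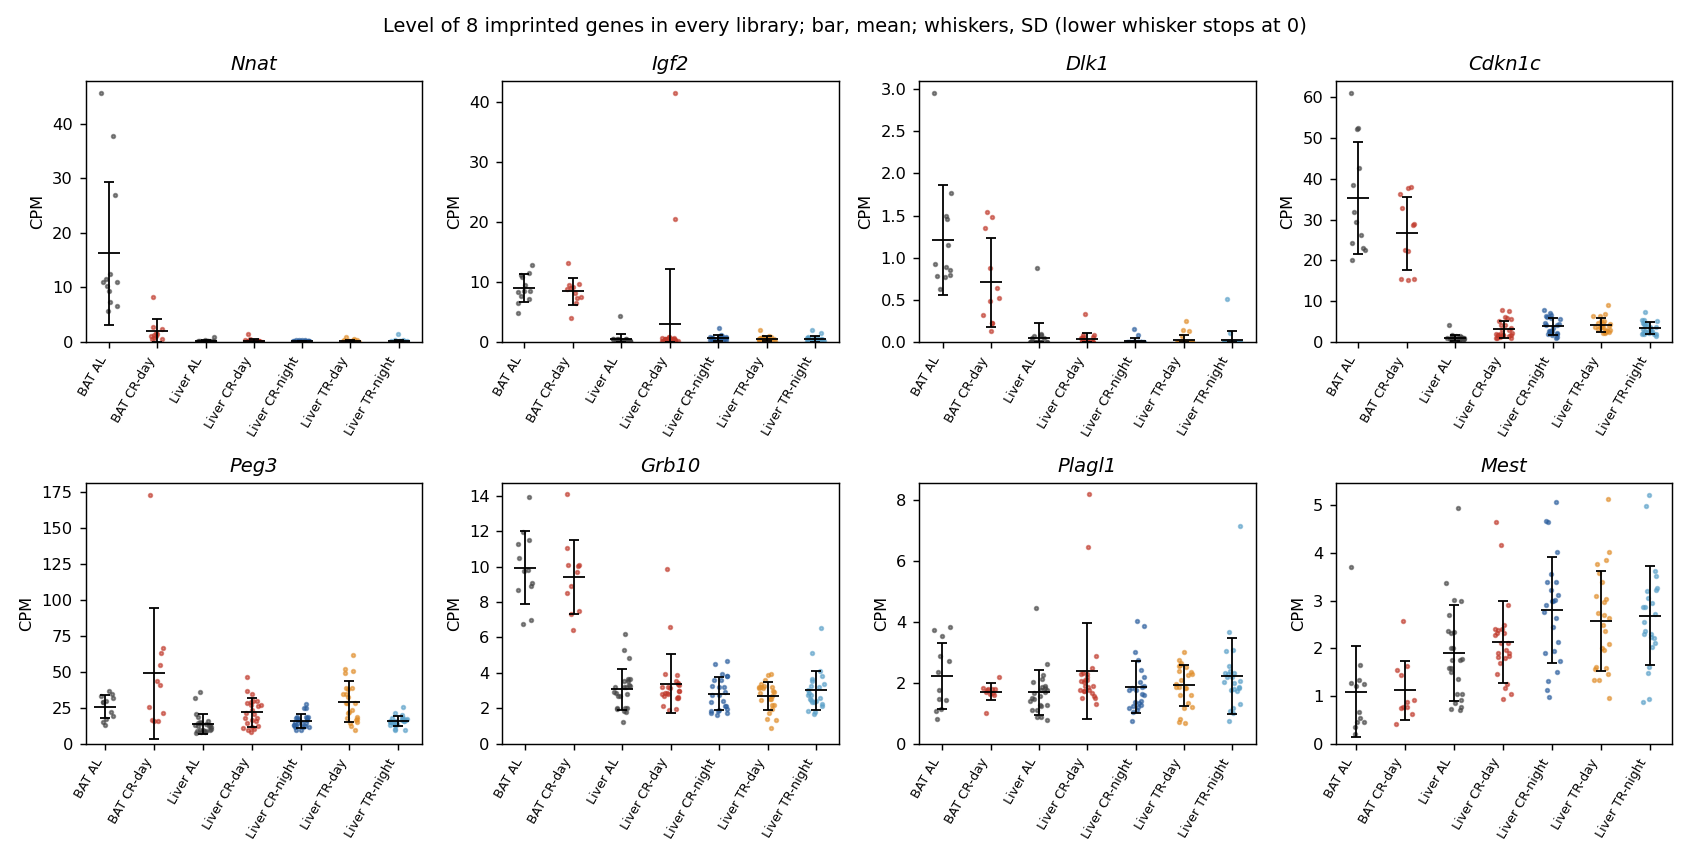
CPM of the 8 genes in every library by group, with the mean (bar) and SD (whiskers). Every BAT value of Cdkn1c, 15.2 CPM or more, lies above every liver value, whereas Nnat in CR-day BAT and Dlk1 in both BAT groups, down to 0.502 and 0.129 CPM, reach into the liver range, and Igf2 in CR-day liver has 2 libraries at 41.4 and 20.6 CPM.

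In liver, Cdkn1c was the member that differed most from AL. Its level was 1.08 ± 0.729 CPM in AL (0.556 to 4.23, median 0.898; SD, n = 24), and from low to high 3.13 ± 2.12 in CR-day, 3.41 ± 1.44 in TR-night, 3.81 ± 2.02 in CR-night and 4.09 ± 1.72 in TR-day. With both letters pooled, the 4 restricted groups overlapped one another. No pair compared differed beyond its spread, with all adjusted p at 0.0781 or above. That pooling hid a difference between the letters. Letter A of CR-day averaged 1.57 ± 0.528 CPM, lower than TR-night (3.94 ± 1.70), TR-day (3.70 ± 1.29) and CR-night (3.94 ± 2.07). Letter B of CR-day had the highest mean, 4.68 ± 1.97, above TR-night (2.89 ± 0.912), TR-day (4.48 ± 2.05) and CR-night (3.68 ± 2.04). The pooled tests therefore do not show that the restricted regimens were alike. Against AL, Cdkn1c rose by 1.55 ± 0.23 under CR-day (edgeR, adjusted p = 6.8e-08), 1.96 ± 0.23 under TR-day (1.6e-12), 1.89 ± 0.23 under CR-night (6.5e-12) and 1.71 ± 0.23 under TR-night (1.3e-10). These comparisons share the AL libraries. The low-count filter asked for 19.8 liver libraries at 0.934 CPM. Only 14 of the 24 AL libraries reached that level, against 23 or 24 in each restricted group. Cdkn1c thus passed through the restricted groups, where it was higher, and AL alone would not have sufficed. The tests against AL are to be read with that limit. The AL level of Cdkn1c rests on few counts, and 625 of its exon bases overlap an antisense transcript, Gm44732.

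The letters parted in CR-day. The share of counts from mitochondrial transcripts parted with them, at 15.2% or less in letter A and 23.8% to 36.2% in letter B of CR-day liver. In AL it was 22.2% in letter A (17.7% to 34.6%) and 13.4% in letter B (11.7% to 15.0%), and in the other restricted groups the letters' medians were 26.3% to 31.5%. The AL library with the highest share, CT00A, also had the highest Cdkn1c of AL, 4.23 CPM. Cdkn1c was 1.57 ± 0.528 CPM in letter A and 4.68 ± 1.97 in letter B of CR-day liver, against 1.27 ± 0.985 and 0.887 ± 0.244 in AL (SD, n = 12 each). Within letter A the CR-day fold was 0.41 (adjusted p = 0.213) and within letter B 2.38 (3.8e-11). The other 3 regimens passed in both letters, with folds of 1.65 to 2.28. Correcting for GC content and length raised the 4 folds to between 2.19 and 3.11. With mitochondrial transcripts left out of the library sizes they were 1.56 (CR-day), 1.90 (CR-night), 1.97 (TR-day) and 1.73 (TR-night). The scaling of the main fit (TMM) already allows for a differing share of a few abundant transcripts, so this alternative could hardly move the folds. Whether the libraries differ in something that moves with the mitochondrial share was not tested.

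Peg3 in liver had its highest means in the 2 day-fed groups. From low to high it was 13.8 ± 7.10 CPM in AL, 15.5 ± 3.52 in TR-night, 15.8 ± 4.65 in CR-night, 21.8 ± 9.89 in CR-day and 29.2 ± 14.1 in TR-day (SD, n = 24). In TR-day the libraries ran from 9.47 to 61.3 CPM (median 27.9) and in TR-night from 9.69 to 25.1 (median 15.5), so that the groups overlapped at the low end. TR-day exceeded TR-night by 0.82 ± 0.14 in log2 (edgeR, adjusted p = 7.5e-06), a comparison in which 3.42% of all genes and 1 of 5 tested members passed. This call held in letter A (0.66, adjusted p = 0.00669), in letter B (1.00, 7.7e-05) and under every other alternative run. Both groups ate without limit in a 6 h window.

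CR-day exceeded CR-night by 0.41 ± 0.13 (adjusted p = 0.00519). In that comparison 67.9% of all genes passed (77.1% in letter A alone, 2.28% in letter B alone), and so did Mest, lower in CR-day by -0.38 ± 0.14 (0.0133). In letter A alone Peg3 was 0.17 (0.316), and in letter B alone Mest was 0.03 (0.942). Peg3 was lower in CR-day than in TR-day by -0.38 ± 0.13 (0.00912; 69.5% of genes passed, 1 of 5 members), and this was -0.10 (0.902) in letter B, where 0 genes of the whole table passed against 81.2% in letter A, and -0.25 (0.112) after the GC correction. Between CR-night and TR-night 0 of 5 members passed, with 0 at an unadjusted p under 0.05 and 0 by DESeq2, where 0.52% of all genes did. In letter A alone 36.4% of all genes passed there, and in letter B alone 0.389%.

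Against AL, Peg3 rose in TR-day by 1.03 ± 0.14 (7.3e-11) and in CR-day by 0.65 ± 0.13 (1.7e-04). The night groups were 0.24 ± 0.14 (CR-night, adjusted p = 0.0979) and 0.21 ± 0.14 (TR-night, 0.147). For CR-day the letters parted here too. Letter A was 17.0 ± 9.07 CPM in CR-day and 17.0 ± 8.41 in AL, with a fold of -0.04 (0.827), and letter B 26.6 ± 8.48 and 10.6 ± 3.61, with a fold of 1.33 (5.0e-10). TR-day passed in both letters, at 0.72 (8.5e-05) and 1.43 (8.0e-11).

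Mest rose against AL in CR-night (0.62 ± 0.14, adjusted p = 6.0e-05), TR-day (0.51 ± 0.14, 0.00102) and TR-night (0.54 ± 0.14, 5.2e-04), and was 0.24 ± 0.14 in CR-day (0.217). In CPM it was 1.89 ± 1.01 in AL, and in order 2.14 ± 0.858 (CR-day), 2.57 ± 1.04 (TR-day), 2.68 ± 1.04 (TR-night) and 2.81 ± 1.11 (CR-night). Each group overlapped every other, and in letter A alone TR-day (0.24, 0.185) and TR-night (0.34, 0.0659) did not pass. Mest (chromosome 6, 30723547 to 30748465) shares 912 exon bases with Copg2 on the other strand, and whether the authors' counting used the strand is not given in the sources used here.

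Plagl1 rose in 1 comparison, TR-night against AL, by 0.38 ± 0.18 (adjusted p = 0.0417), a call lost with DESeq2 (0.0511) and at 0.09 after the GC correction (0.670). Its group means lay between 1.68 ± 0.750 CPM in AL and 2.40 ± 1.58 in CR-day. Grb10 passed in none of the 8 liver comparisons, with means of 2.69 to 3.39 CPM and folds of -0.17 to 0.30. Of the 5 members tested in liver, then, 2 rose against AL under CR-day, 3 under TR-day, 2 under CR-night and 3 under TR-night. Cdkn1c is in each of these counts, and AL alone would not have carried it past the low-count filter. Over all genes 12.6%, 38.3%, 38.1% and 39.4% were called higher in the same comparisons, and the counts of members are to be read against those shares. For CR-day the share depends on the letters used: 30.6% of genes were called higher in letter A alone and 38.7% in letter B alone, against 12.6% with both. In either direction 59.6% were called in letter A, 76.9% in letter B and 19.6% with both. Many calls made within a letter were thus lost on pooling, across the whole table and not in the members alone. In CR-day the median log2 fold of the 5 was 0.45, against 0.01 for all genes.

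**Figure D3:**
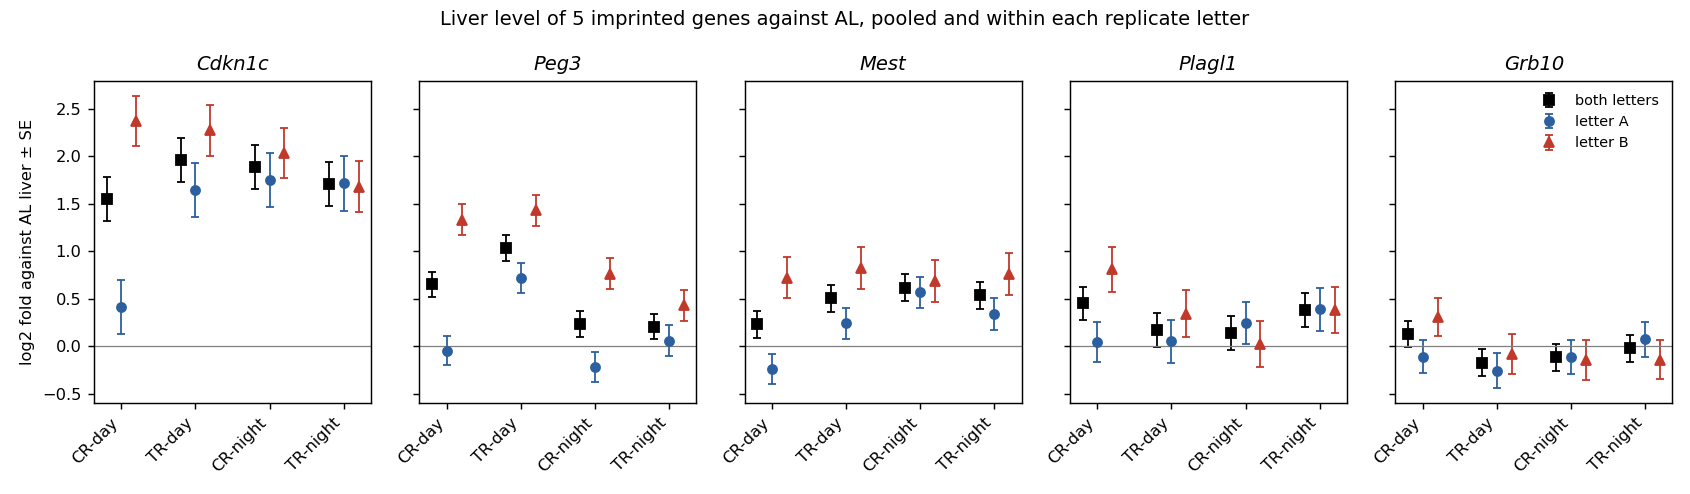
Log2 fold against AL liver (± SE) of 5 members in the 4 restricted regimens, from both letters (black squares), letter A (blue circles) and letter B (red triangles). In CR-day the letter A values of Cdkn1c and Peg3 are 0.41 and -0.04 and those of letter B 2.38 and 1.33.

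Igf2, Dlk1 and Nnat were close to absent from liver. Igf2 was 0.434 ± 0.837 CPM in AL, 0.472 ± 0.442 in TR-night, 0.536 ± 0.400 in TR-day and 0.646 ± 0.432 in CR-night. CR-day was 2.94 ± 9.17, with CT24B at 41.4 CPM and CT44B at 20.6, while no other CR-day library exceeded 0.752. Those libraries also had the highest Plagl1 of CR-day, 6.45 and 8.20 CPM, and the highest Grb10, 9.90 and 6.59. AL CT12B came next in Igf2 with 4.29 CPM. In these 3 libraries the 11 preadipocyte and fibroblast markers summed to 869.7, 881.2 and 600.4 CPM, ranks 2, 1 and 4 among 120 liver libraries, and the 13 cell cycle genes to 297.5, 512.7 and 433.1 CPM, ranks 6, 2 and 4. Their part in the Igf2 values was not tested. Dlk1 averaged 0.0097 to 0.051 CPM over the 5 liver groups.

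Daily rhythm in liver was limited to Peg3 and Mest among the 5 members tested. Peg3 was rhythmic in AL (amplitude 0.42 ± 0.15 log2 units, peak CT 21.1 ± 1.41, edgeR adjusted p = 0.0125), CR-day (0.54 ± 0.17, CT 18.8 ± 1.22, 0.00915) and TR-day (0.76 ± 0.14, CT 18.6 ± 0.699, 6.3e-05). It did not pass in CR-night (0.19 ± 0.11, 0.526) or TR-night (0.23 ± 0.083, 0.407). The TR-day wave passed in letter A (0.0315) and letter B (6.9e-04) alone, and the AL and CR-day waves did not pass in letter B (0.245 and 0.282).

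Mest was rhythmic in AL (amplitude 0.66 ± 0.15, peak CT 0.481 ± 0.855, adjusted p = 8.5e-04), CR-night (0.50 ± 0.14, CT 0.612 ± 1.08, 0.0123), TR-night (0.61 ± 0.11, CT 0.537 ± 0.689, 0.00288) and TR-day (0.45 ± 0.14, CT 20.7 ± 1.18, 0.0347). In CR-day it did not pass (0.36 ± 0.13, 0.0936). None of these Mest waves passed in letter B alone. Rhythmic members thus numbered 2 of 5 for AL (12.4% of all genes), 1 for CR-day (16.4%), 2 for TR-day (15.5%), 1 for CR-night (35.3%) and 1 for TR-night (26.4%).

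A change of rhythm against AL was found for 0 of 5 members in each regimen. At an unadjusted p under 0.05 the numbers were 1 for CR-day, 2 for TR-day, 0 for CR-night and 1 for TR-night, and by DESeq2 0, 1, 0 and 0. The nearest was Mest in TR-day, whose peak stood at CT 20.7 rather than 0.481 (edgeR, adjusted p = 0.0546; DESeq2, 0.0493). Over all genes, rhythm changed in 21.9% for CR-day, 16.3% for TR-day, 0.0252% for CR-night and 0.00839% for TR-night. The differing Peg3 calls between regimens are thus not shown to be differences in rhythm, with adjusted p of 0.341, 0.155, 0.616 and 0.792 in that order.

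**Figure D4:**
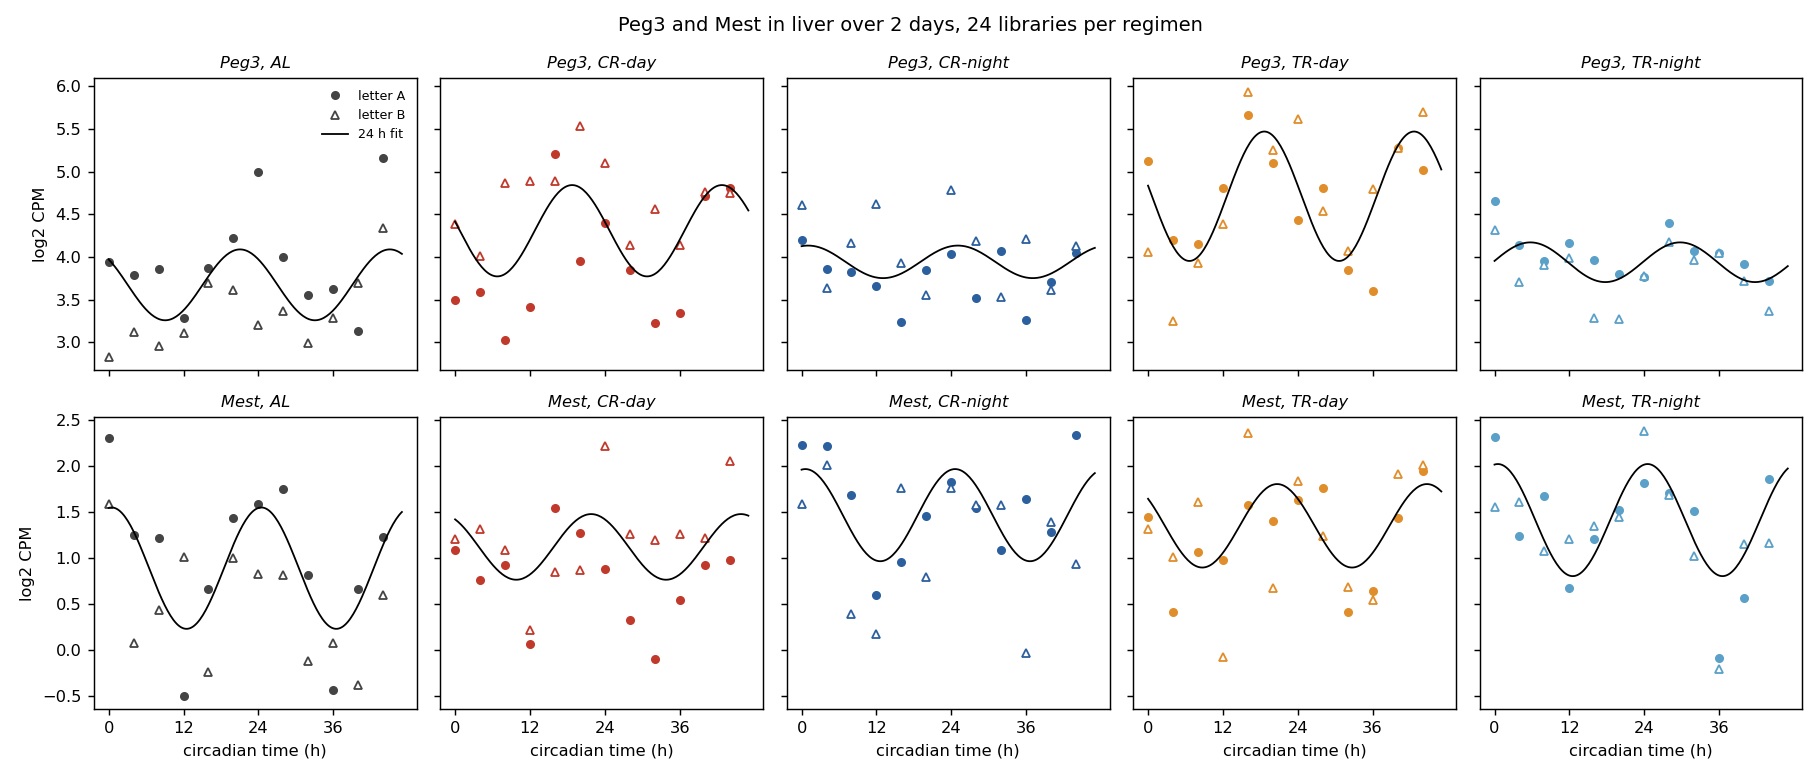
Log2 CPM of Peg3 (top) and Mest (bottom) in liver against circadian time for each regimen, with letter A as filled circles, letter B as open triangles and the fitted 24 h wave as a line. Peg3 has its widest wave in TR-day, 0.76 log2 units from mean to peak, and Mest peaks near CT 0.5 in AL and both night groups.

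Other imprinted genes in liver are given for comparison, with both letters pooled. In CR-day against AL, 2 of 21 tested rose and 4 fell, with a median log2 fold of -0.03, where 12.6% of all genes rose and 6.98% fell. Zrsr1, which encodes a splicing factor relative, rose by 0.47 ± 0.12 (adjusted p = 0.00416) and the ubiquitin ligase Ube3a by 0.38 ± 0.14 (0.0440). Ppp1r9a fell by 0.74 ± 0.14 (5.5e-05), H13 by 0.36 ± 0.12 (0.0232), Peg10, a retrotransposon-derived gene, by 0.75 ± 0.26 (0.0336) and Blcap by 0.26 ± 0.092 (0.0353). Between TR-day and TR-night, where Peg3 differed, 1 of the 21 did, Ppp1r9a at -0.54 ± 0.14 (0.0146).

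In the IGF2 and insulin axis of CR-day liver against AL 6 of 14 genes rose and 1 fell, where 12.6% of all genes rose and 6.98% fell. These calls and those of the cell cycle genes below pool both letters, which parted in this comparison. Values within each letter are not given here for these genes. Insr rose by 0.30 ± 0.082 (adjusted p = 0.00571) and Igf1r by 0.41 ± 0.12 (0.0143), Igfbp5 by 0.40 ± 0.12 (0.0179) and Igfbp7 by 0.44 ± 0.14 (0.0209). Igfbp4, a binding protein, fell by 0.25 ± 0.081 (0.0224), and Igf2r was 0.07 ± 0.096 (0.611). Igfbp5 therefore rose in CR-day liver and fell in CR-day BAT, a difference that was not itself tested. Of the 12 cell cycle genes 2 rose, Cdkn2c by 0.64 ± 0.17 (0.00566) and Ccnd2 by 0.45 ± 0.15 (0.0298), and 2 fell, the replication licensing genes Mcm2 by 0.69 ± 0.23 (0.0269) and Mcm5 by 0.88 ± 0.30 (0.0294).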

How the data were processed

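Polyadenylated RNA of 120 liver and 24 BAT samples was sequenced. The deposited raw counts per gene, made with STAR and featureCounts after cutadapt and FastQC per the submitters' processing notes, were used for every test. The deposited RPKM of the authors served for BAT CR-day CT00 and as an alternative. Tool versions, genome build and strand use are not given in the sources used here. Coordinates are from GENCODE vM21 (mm10), which shares the members' identifiers. In 1 BAT table, 1 column identical to a liver library was not used.

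Tests used R 4.3.3 and edgeR 4.0.16 (filterByExpr, TMM, quasi-likelihood F test), with an intercept, cosine and sine of a 24 h period per group and Benjamini-Hochberg adjustment over all genes at 0.05. Liver (11926 genes), BAT (10966) and all groups of both tissues together (12969, for the contrast of the AL groups) were fitted separately. CPM are TMM-scaled, given as mean ± SD, and folds as log2 ± SE. Waves and residual patterns use log2 CPM with a prior count of 2. Intervals are 95% and depth limits genes near 1 CPM. The fits were tested on simulated data. Alternatives were DESeq2 1.42.0, no filter, no 24 h terms, a letter block, GC and length correction, and libraries left out.

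Members, lists and tests were chosen with earlier results of these data known. Members at 1 CPM or more in a group of a tissue are described in full. Of the other lists, up to 4 genes of smallest p per direction are named, with Blcap, Igf2r, Igf1r and Insr, and the 5 genes most like Nnat and Mest, of which 1 is not reported here; Fndc5 was named after its value was seen. Same-letter liver residuals had a median correlation of 0.0146 and other-letter ones 0.0619, from a fit with no letter term. Because the letters of AL and CR-day parted in opposite directions, these medians cannot tell whether a letter pairs samples.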

Additional observations from a re-analysis of the deposited data

How the results depend on the processing

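The log2 fold of Nnat in BAT stayed negative under every alternative run, from -3.51 to -2.85 as single libraries were left out and between -3.22 and -2.11 otherwise on counts. It was -3.01 on log2 RPKM with a pseudocount of 0.1 and -2.01 with a pseudocount of 1, which by construction shrinks the folds of low values. The 4 members that passed the filter in both tissues were also higher in BAT with DESeq2 size factors, with nuclear genes only and with letter A liver alone. None of these alternatives left out the muscle-rich AL BAT libraries. Of the other imprinted genes in BAT, 2 passed, against 0 with no 24 h terms, 0 on day 1 alone, 0 on day 2 alone and 1 without the muscle-rich AL libraries, and 1 to 4 with single libraries left out; the cause was not tested, though each day alone holds fewer samples.

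Within 1 letter the liver members called went from 0 to 4 for CR-day against AL, 1 to 2 for CR-day against CR-night, 0 to 3 for CR-day against TR-day and 1 to 3 for TR-night against AL. Peg3 in CR-day against AL was -0.044 in letter A and 1.33 in letter B, and Mest in CR-day against CR-night was -0.81 in letter A and 0.033 in letter B. For CR-day against TR-day, where 1 member passed, 2 did with no filter, 2 with no 24 h terms, 2 with GC and length correction, 2 with DESeq2, 3 without the 4 distant libraries and 0 without AL letter B and CR-day letter A. That last alternative, the one on muscle and the one on nuclear genes in 1 tissue, which kept every count within 1.5 times, were chosen after seeing the data. Leaving out those letters left 1 member for CR-day against CR-night, where GC correction gave 4, and 1 for TR-night against AL.

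Rhythmic members within 1 letter were 0 to 2 in AL liver, 0 to 1 in CR-day, CR-night and TR-night and 1 in TR-day, with 0 in CR-day without AL letter B and CR-day letter A and 2 there with GC correction. With no low-count filter they were 2 in CR-day, 1 in TR-day, 2 in TR-night liver, 1 in AL BAT and 2 in CR-day BAT. DESeq2 gave 1 in AL BAT and 2 in CR-day BAT, the range with single libraries left out was 0 to 1 and 1 to 2, day 1 alone gave 0 in CR-day BAT, and without the muscle-rich AL libraries 2 passed. Members with a changed rhythm against AL went from 0 to 2 in CR-day with no filter and to 1 to 2 within 1 letter, in TR-night to 1 with no filter, and in TR-day to 1 without distant libraries, with GC correction or with DESeq2, and 2 without AL letter B and CR-day letter A.

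With the letter as a replicate block the liver counts were the same as without it. They were 2, 2, 3 and 3 members called against AL in CR-day, CR-night, TR-day and TR-night, and 0 with a changed rhythm. Each regimen holds both letters equally, so by design this block hardly moves the folds between regimens. It removes only a letter shift common to all regimens, and the AL and CR-day letters parted in opposite directions. For CR-day against AL 18.6% of all genes were called with the block and 19.6% without it. Within letter A 59.6% were called and within letter B 76.9%. The equal counts therefore do not show that the letters are without effect. The labels do not say whether a letter marks a shared batch. Members near 1 CPM, which include Cdkn1c in AL liver and Mest and Dlk1 in BAT, rest on about 10 counts per library. At this depth a difference must be well above its SE to be detectable.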
